A study of Homo sapiens with 6 samples.

Results

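The mitochondrial ribosomal protein genes were taken as all genes whose symbol is MRPL or MRPS followed by a number and, where present, a letter A, B or C. They were 78 of the 62492 genes listed for each library, with 49 MRPL genes named for the large subunit and 29 MRPS genes named for the small subunit. HCT116, a human colorectal carcinoma line labelled as WT in genotype, was transfected with siControl or with siNONO, in both cases at 20 nM with lipofectamine RNAiMAX, and polyA RNA was sequenced from 3 libraries per group. Each group has a library labelled Set 1, Set 2 and Set 3. NONO is an RNA- and DNA-binding protein of the nuclear paraspeckle. A single siNONO is named, so that loss of NONO and another effect of that siRNA cannot be told apart, and the labels do not say whether the Sets are separate cultures, so that p-values measure the spread between these libraries, which may be technical.

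The mitochondrial ribosome, or mitoribosome, translates the few mRNAs that mitochondrial DNA encodes, all of them for subunits of oxidative phosphorylation complexes. Its rRNAs come from mitochondrial DNA, whereas every protein in it is encoded in the nucleus, made in the cytosol and imported. Part of these proteins have a counterpart in the bacterial ribosome, and the rest were added in mitochondria. Symbols do not always match the place in the structure, since MRPS30 and MRPS18A lie in the large subunit, and MRPS36 is now known as a component of the alpha-ketoglutarate dehydrogenase complex.

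The genes lie apart in the genome, on 21 chromosomes, with at most 8 on any of them (chromosomes 1, 2 and 17). What many of them share is a promoter sequence. Promoters from 250 bases before to 50 bases after the start were given by RefSeq on GRCh38.p14 for 69 of the 78 genes. Short motifs were searched on both strands, and none of the motifs contains another. The ETS core CCGGAAG, the kind of sequence that GABP binds, was found in 29 of the 69 promoters (42.03%), against 10.7% of all 27305 promoters of that length and 18.3% of those of 11669 genes tested here. ATGGCGG, a core of the YY1 motif, was in 24 (34.8%), against 5.72% of all promoters and 9.74% of those of tested genes. Either motif was in 46 promoters (66.7%), against 15.1% of all promoters, and both were in 7. The share with either motif was not counted over tested genes, where each motif alone was more frequent than over all promoters. GCATGCG, a core of the NRF1 motif, was in 7 (10.1%), against 4.13% of all promoters and 6.26% of those of tested genes. The NF-Y core CCAAT was in 20 (29.0%), below the 35.7% of all promoters. TATAAA was in 2 (2.90%), against 11.95% of all promoters and 5.67% of those of tested genes.

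The promoters of the genes with the highest and the lowest log2 fold change in each subunit that have an entry are shown, as the 150 bases before the start, since these 4 genes recur in the results. Capitals mark any of the 5 motifs on either strand.
MRPL51 (chr12:6493263-6493412, minus strand): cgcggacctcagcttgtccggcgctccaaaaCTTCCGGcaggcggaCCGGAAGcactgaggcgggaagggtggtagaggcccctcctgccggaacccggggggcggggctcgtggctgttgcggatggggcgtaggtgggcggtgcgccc
MRPL43 (chr10:100987498-100987647, minus strand): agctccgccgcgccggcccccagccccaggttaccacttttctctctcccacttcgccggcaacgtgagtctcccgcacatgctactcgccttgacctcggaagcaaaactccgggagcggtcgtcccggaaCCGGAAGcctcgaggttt
MRPS9 (chr2:105037919-105038068, plus strand): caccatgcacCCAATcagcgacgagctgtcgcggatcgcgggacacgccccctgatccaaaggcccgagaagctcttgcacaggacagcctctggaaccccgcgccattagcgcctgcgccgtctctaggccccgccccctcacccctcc
MRPS35 (chr12:27710682-27710831, plus strand): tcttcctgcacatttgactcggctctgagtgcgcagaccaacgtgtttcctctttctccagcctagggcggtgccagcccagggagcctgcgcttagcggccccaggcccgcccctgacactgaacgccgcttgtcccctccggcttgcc
MRPL51 holds the ETS core on both strands, and MRPL43, which moved the other way, holds it close to the start. MRPS9 holds CCAAT, and its ATGGCGG lies after the start, outside the bases shown. The stretch of MRPS35 has none of the motifs, and its ATGGCGG also lies after the start.

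Total estimated counts per library ran from 21765393 to 32659002, and the 78 genes took 0.397%, 0.400% and 0.391% of them in siControl and 0.412%, 0.415% and 0.429% in siNONO (Sets 1, 2 and 3). A single gene of the 78 had between 271 and 4778 counts per library, so all of them passed the filter on low counts. Set 3 stood apart: replicate pairs that included it differed by a chi-square of 4.90 to 9 per degree of freedom, against 2.71 and 2.88 for the other pairs, and siControl of Set 3 had the lowest depth. NONO had 496, 494 and 516 CPM (counts scaled to library size with TMM factors) in siControl and 89.5, 95.4 and 100.4 CPM in siNONO, which left 18.9% of the siControl level. Of 9 markers of colon epithelium, 6 reached 1 TPM, and CEACAM5 and CDX1 were listed at 0 in all libraries. Markers of blood cells and endothelium stayed low, with sums over the list of at most 1.15 TPM and 0.34 TPM in any library, and of 3 fibroblast markers only COL1A1 reached 1 TPM.

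After siNONO, more mitochondrial ribosomal protein genes were called higher than lower, and the largest group was not called. By edgeR's quasi-likelihood test with a threshold of 0.05 on the adjusted p, 34 of 78 were higher (43.6%), 6 were lower (7.69%) and 38 were not called. Over all 17000 genes tested, 23.2% were called higher and 23.4% lower. Over the 9787 genes with an average CPM no lower than that of the lowest of the 78, 31.4% were called higher and 32.2% lower. This second background has a lower limit only and is not matched to the levels of the 78 genes. The share of the 78 called higher therefore lay above both backgrounds and the share called lower below both. Without the Set as a block, fewer genes were called both in the family and over all genes. There 23 of the 78 were higher and 3 lower, against 3096 higher and 3068 lower of all 17000 genes tested.

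The changes were small. The median log2 fold change of the 78 genes was 0.11 (quartiles 0.04 and 0.21), against -0.00479 for all genes tested, and 65 of 78 had a positive value. Only MRPL43 changed by 0.5 or more on the log2 scale. Genes called higher ranged from 9.26% to 38.2% above siControl, with 5 at a log2 fold change of at least 0.3, 16 from 0.2 to 0.3 and 13 below 0.2. The 38 genes not called ran from -0.11 to 0.19, so the limit of a call lay well inside the range of the family. All 34 genes called higher had a positive value in each Set, and 5 of the 6 called lower had a negative one in each Set.

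The size differed between Sets. The median log2 fold change of the 78 genes was 0.09, 0.10 and 0.18 in Sets 1, 2 and 3, and 49 genes had their highest value in Set 3. With both libraries of Set 3 left out, the median was 0.09, with 30 of the 78 genes higher and 6 lower. Of all 17135 genes tested in that fit, 3839 were higher and 3653 lower. In 39 of the 78 genes all siNONO values lay above all siControl values, or 50%, against 23.9% of all genes tested. The reverse held for 4, or 5.13%, against 24% of all genes.

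**Figure D1:**
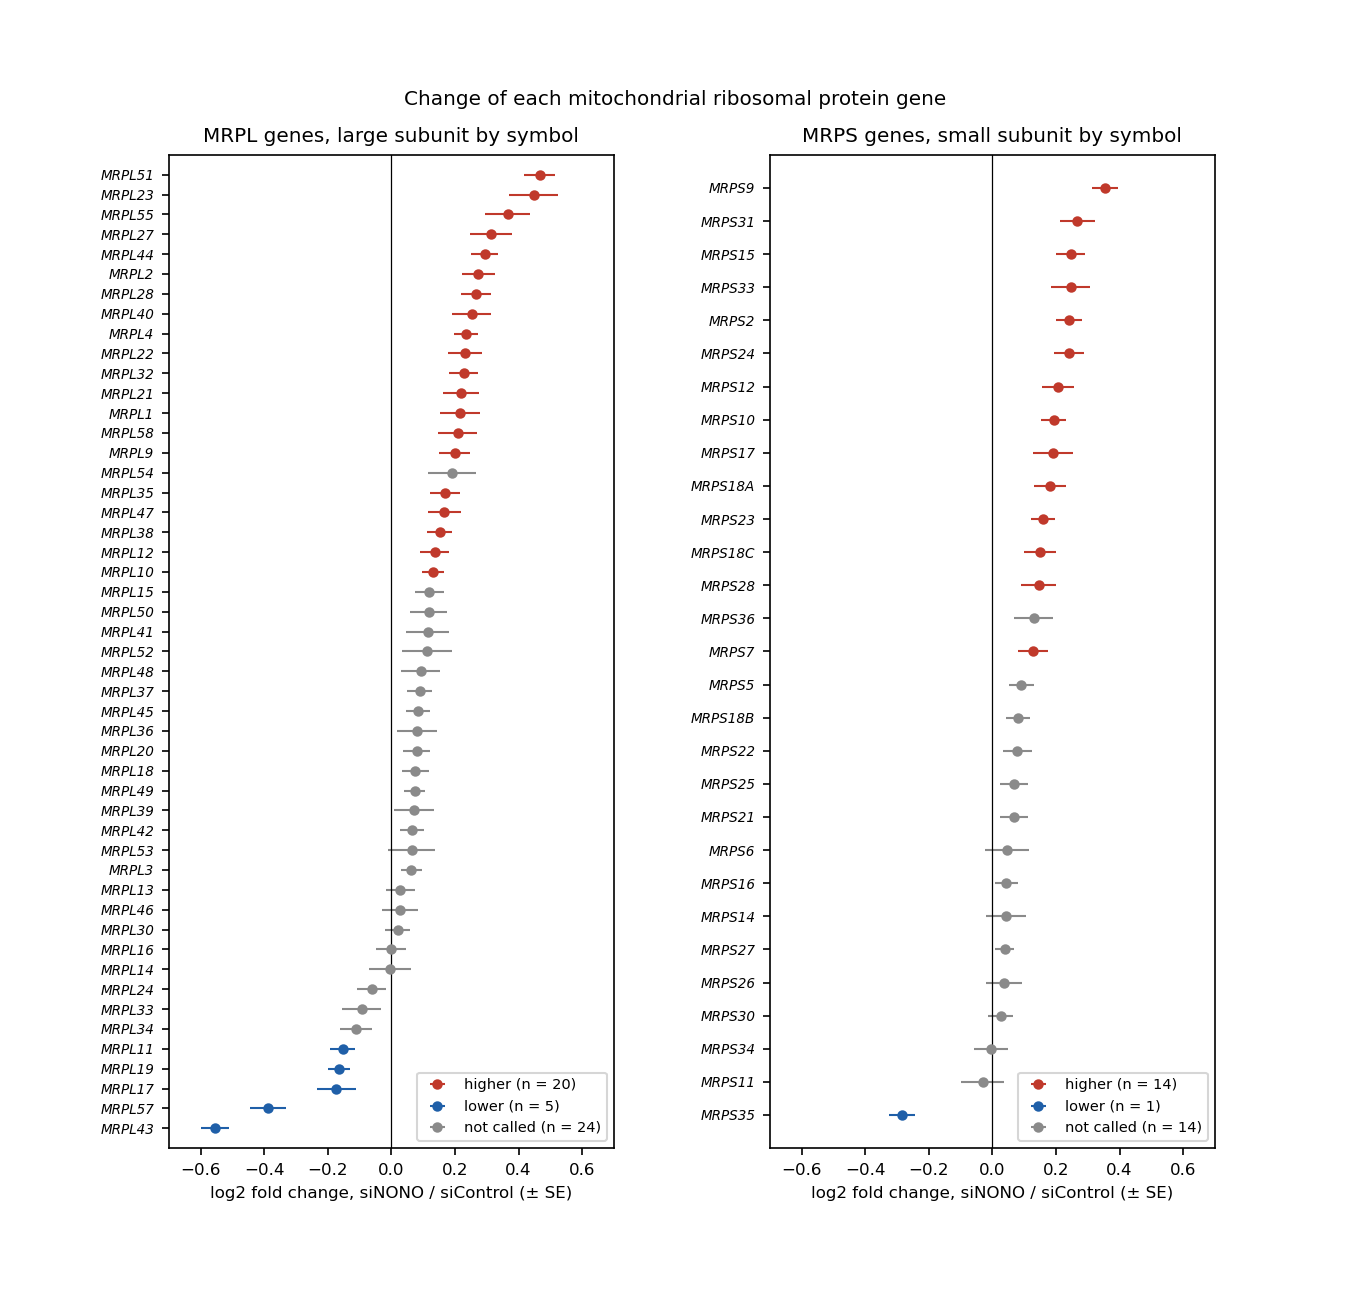
Log2 fold change of siNONO over siControl (x axis) for each of the 49 MRPL genes (left) and 29 MRPS genes (right), ordered by value; points are edgeR estimates, bars are the SE, red is called higher, blue called lower and grey not called. Most points lie right of 0, and MRPL43 at -0.55 and MRPL51 at 0.47 are the ends of the range.

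In the large subunit, the highest log2 fold changes among called genes were those of MRPL51, MRPL23, MRPL55, MRPL27, MRPL44 and MRPL2. MRPL51 (GRCh37, chr12:6601052-6603007, minus strand), a protein added in mitochondria, had 41.1, 39.7 and 37.1 CPM in siControl and 52.8, 55.4 and 55.1 CPM in siNONO (Sets 1, 2 and 3). Every siNONO library was above every siControl library, and the groups lay far apart relative to their spread. Its log2 fold change was 0.47 (SE 0.0492, adjusted p = 6.83e-06 from edgeR). Its exons overlap those of NCAPD2 on the opposite strand, which went down, with a log2 fold change of -0.64 (adjusted p = 4.23e-09 from edgeR).

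MRPL23 (chr11:1968508-2005752, plus strand) is the counterpart of a bacterial protein at the mouth of the exit tunnel, where the new chain leaves the ribosome. It had 24.2, 22.2 and 22.4 CPM in siControl and 28.1, 29.9 and 36.8 CPM in siNONO, a log2 fold change of 0.45 (SE 0.0785, adjusted p = 4.62e-04 from edgeR). The groups did not overlap, but siNONO of Set 3 was well above the other siNONO libraries, and the Sets moved by 0.21, 0.43 and 0.71 on the log2 scale. MRPL23-AS1, which overlaps it on the opposite strand, had a log2 fold change of -1.14 (adjusted p = 0.00570 from edgeR). MRPL55, counted as the counterpart of bacterial bL31, had 15.4, 13.4 and 16.2 CPM in siControl and 17.8, 19.0 and 21.3 CPM in siNONO, a log2 fold change of 0.37 (SE 0.0707, adjusted p = 9.32e-04 from edgeR). Its groups did not overlap either, although the Sets differed in level.

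MRPL27, whose bacterial counterpart reaches the peptidyl transferase centre, had 38.6, 38.3 and 34.4 CPM in siControl and 43.4, 44.98 and 50.5 CPM in siNONO, with a log2 fold change of 0.31 (SE 0.0655, adjusted p = 0.00167 from edgeR). Its difference was largest in Set 3, at 0.56, and 0.17 and 0.23 in Sets 1 and 2. MRPL44, a protein with an RNase III-like fold, had 47.0, 50.3 and 43.9 CPM in siControl and 57.8, 60.0 and 55.3 CPM in siNONO (log2 fold change 0.29, SE 0.0420, adjusted p = 9.29e-05 from edgeR). Here the Sets moved by nearly the same amount, from 0.25 to 0.33. MRPL2, the counterpart of bacterial uL2 near the peptidyl transferase centre, had 28.9, 31.0 and 28.5 CPM in siControl and 33.1, 37.5 and 36.5 CPM in siNONO (log2 fold change 0.27, SE 0.0520, adjusted p = 8.37e-04 from edgeR). The groups did not overlap for any of these 3 genes. KLC4, opposite MRPL2, was lower, at -0.37 (adjusted p = 0.00438 from edgeR).

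The lowest values of the whole family were also in the large subunit. MRPL43 (chr10:102729215-102747272, minus strand), a protein added in mitochondria, had 61.8, 61.8 and 67.3 CPM in siControl and 42.7, 44.1 and 42.9 CPM in siNONO. It fell to about the same level in all siNONO libraries, with a log2 fold change of -0.55 (SE 0.0453, adjusted p = 7.43e-07 from edgeR), or a change of -31.9%. On the opposite strand its exons overlap TWNK, the mitochondrial DNA helicase, which was higher at 0.34 (adjusted p = 1.99e-05 from edgeR), and SEMA4G, at -0.07 and not called. MRPL57, also added in mitochondria, had 38.4, 38.4 and 40.1 CPM in siControl and 28.7, 27.3 and 33.8 CPM in siNONO, a log2 fold change of -0.39 (SE 0.0564, adjusted p = 1.09e-04 from edgeR). Its groups did not overlap, and no gene was annotated over its exons.

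The other genes of the large subunit that fell did so by less. MRPL19, whose bacterial counterpart sits at the subunit interface, had 96.3, 96.99 and 86.3 CPM in siControl and 87.1, 83.7 and 78.6 CPM in siNONO, a log2 fold change of -0.16 (SE 0.0358, adjusted p = 0.00221 from edgeR). Its groups overlapped because Set 3 was low in both, while within each Set siNONO was lower. Its call was lost without siControl of Set 2 (-0.13, adjusted p = 0.0633 from edgeR). MRPL11, at the base of the stalk that recruits translation factors, had 57.9, 61.9 and 60.9 CPM in siControl and 51.9, 55.6 and 55.01 CPM in siNONO, a log2 fold change of -0.15 (SE 0.0396, adjusted p = 0.00663 from edgeR). The groups did not overlap, but the call was lost without either library of Set 1 or siControl of Set 2, at adjusted p of 0.0545, 0.0557 and 0.0646. MRPL17, the sixth gene called lower, was at -0.17 (adjusted p = 0.0379 from edgeR) with overlapping groups, and its call was lost without any library of Set 1 or Set 3, where the value ran from -0.16 to -0.09.

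**Figure D2:**
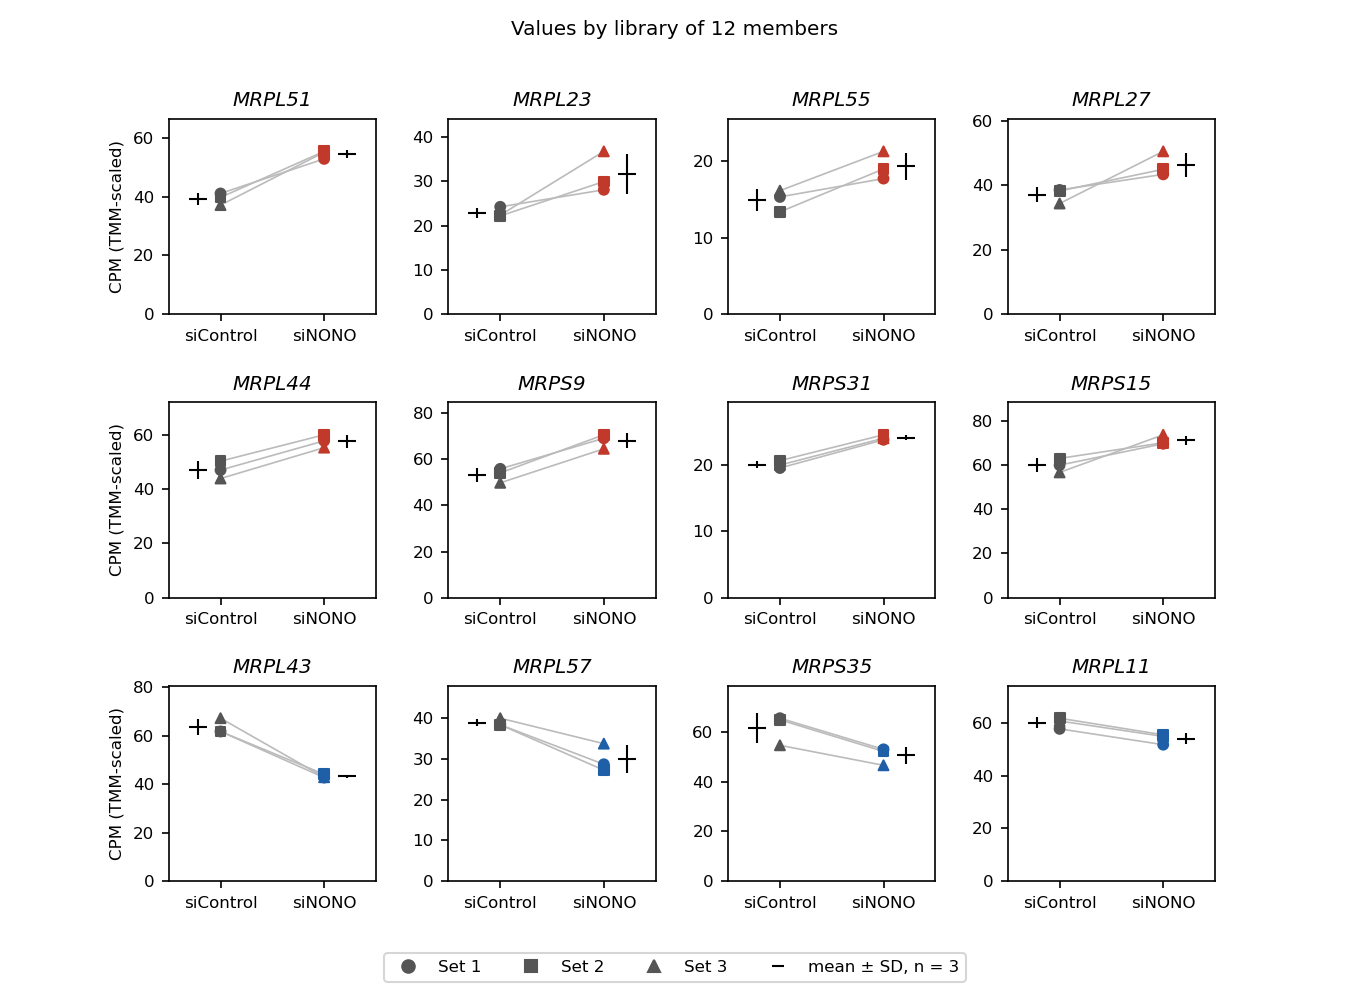
CPM (y axis, from 0, scaled by TMM) in the 6 libraries for 12 genes; markers give Sets 1 to 3, grey lines join libraries of a Set, and black bars beside them give mean ± SD (n = 3). In the top and middle rows each line rises, from 37.1 to 55.1 in Set 3 of MRPL51, and in the bottom row each falls, from 67.3 to 42.9 in Set 3 of MRPL43.

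In the small subunit, MRPS9 had the highest log2 fold change. It encodes the counterpart of bacterial uS9, whose tail reaches the tRNA in the P site, and lies on chr2:105654527-105716418 of GRCh37, plus strand. It had 55.9, 54.1 and 49.8 CPM in siControl and 69.1, 70.7 and 64.6 CPM in siNONO (log2 fold change 0.35, SE 0.0400, adjusted p = 1.25e-05 from edgeR). The groups did not overlap and the Sets moved by 0.31, 0.38 and 0.37. MRPS31, added in mitochondria, had 19.5, 20.6 and 20.0 CPM in siControl and 23.8, 24.5 and 24.0 CPM in siNONO (log2 fold change 0.27, SE 0.0555, adjusted p = 0.00162 from edgeR). Its replicates lay within about 1 CPM of each other in either group.

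MRPS15, which binds the small-subunit rRNA, had 60.0, 63.0 and 56.7 CPM in siControl and 69.7, 70.1 and 73.7 CPM in siNONO (log2 fold change 0.25, SE 0.0462, adjusted p = 7.60e-04 from edgeR). MRPS33, added in mitochondria, had 22.5, 24.98 and 20.6 CPM in siControl and 28.0, 26.9 and 25.7 CPM in siNONO (log2 fold change 0.25, SE 0.0607, adjusted p = 0.00499 from edgeR). The siNONO libraries lay above the siControl libraries in both genes. MRPS2, the counterpart of bacterial uS2, had 71.4, 71.5 and 71.5 CPM in siControl and 79.6, 84.02 and 90.5 CPM in siNONO (log2 fold change 0.24, SE 0.0416, adjusted p = 3.96e-04 from edgeR). MRPS24, the counterpart of uS3 at the mRNA entry, had 31.2, 33.6 and 35.2 CPM in siControl and 36.9, 39.3 and 41.8 CPM in siNONO (log2 fold change 0.24, SE 0.0471, adjusted p = 0.00105 from edgeR). siControl of MRPS2 hardly varied, whereas MRPS24 differed between Sets in both groups alike. A readthrough transcript, URGCP-MRPS24, shares exons with MRPS24 on the same strand, so its reads can be split between them.

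MRPS35 was the only gene of the small subunit called lower. It lies on chr12:27863755-27909228 (GRCh37, plus strand) and was added in mitochondria. It had 65.7, 65.0 and 54.7 CPM in siControl and 53.1, 52.3 and 46.7 CPM in siNONO (log2 fold change -0.29, SE 0.0413, adjusted p = 1.02e-04 from edgeR). The groups did not overlap, and the fall was -0.31, -0.31 and -0.23 in Sets 1, 2 and 3.

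Large and small subunit were then compared as groups. Of 49 MRPL genes, 20 were higher (40.8%) and 5 lower (10.2%), with a median log2 fold change of 0.11. Of 29 MRPS genes, 14 were higher (48.3%) and 1 lower (3.45%), with a median of 0.13. The medians of the large subunit were 0.11, 0.09 and 0.17 in Sets 1, 2 and 3, and those of the small subunit 0.07, 0.12 and 0.22. The order of the subunits thus changed between Sets, and the difference of -0.02 (large minus small) was smaller than the SD of the Set medians, 0.0394 and 0.0787. With MRPS30 and MRPS18A counted in the large subunit and MRPS36 left out, 21 of 51 were higher and 5 lower in the large subunit (median 0.112), and 13 of 26 were higher and 1 lower in the small subunit (median 0.109), which turned the order of the medians.

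Levels per length, as TPM (counts per length, scaled to the same total in each library), were summed over each subunit. The large subunit by symbol had 3854, 3862 and 3813 TPM in siControl and 3842, 3811 and 4063 TPM in siNONO. The small subunit had 2062, 2052 and 1956 TPM in siControl and 2067, 2061 and 2177 TPM in siNONO. In both subunits only Set 3 rose clearly on this scale, from the lowest siControl sum to the highest siNONO sum. The mean log2 ratio over the 3 Sets was 0.02 (SD 0.0603) for the large and 0.05 (SD 0.0863) for the small subunit, each smaller than its spread. In summed CPM it was 0.09 (SD 0.0379) and 0.11 (SD 0.0555).

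The ratio of the summed TPM of large over small subunit was 1.87, 1.88 and 1.95 in siControl and 1.86, 1.85 and 1.87 in siNONO. It was lower after siNONO in each Set, by little in Sets 1 and 2, with the lowest siControl value at 1.869 and the highest siNONO value at 1.866. In summed CPM the ratio was 1.55, 1.58 and 1.60 in siControl and 1.56, 1.54 and 1.56 in siNONO. There the groups overlapped and Set 1 moved the other way.

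The proteins with a bacterial counterpart and those added in mitochondria were set side by side, by their systematic names. Of 46 genes with a bacterial counterpart, 25 were higher (54.3%) and 3 lower (6.52%), with a median log2 fold change of 0.13 (0.12, 0.11 and 0.17 in Sets 1, 2 and 3). Of 31 genes added in mitochondria, 9 were higher (29.0%) and 3 lower (9.68%), with a median of 0.08 (0.08, 0.08 and 0.19). The share of the latter called higher lay near the background of 23.2% over all genes and 31.4% over genes no lower than the lowest member of the family. Their share called lower lay below the matching 23.4% and 32.2%. Positive values were seen in 27 of these 31 genes and in 37 of the 46 with a bacterial counterpart. The genes with a bacterial counterpart had the higher median in Sets 1 and 2 and the lower one in Set 3. MRPL43, MRPL57 and MRPS35, the genes that fell most, were all added in mitochondria. So was MRPL51, the gene that rose most. In the small subunit by structure, 10 of 16 genes with a bacterial counterpart were higher and none was lower, against 3 higher and 1 lower of 10 genes added in mitochondria. In the large subunit, 15 of 30 were higher and 3 lower, against 6 and 2 of 21.

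MRPS18A, MRPS18B and MRPS18C are paralogs related to the bacterial protein bS18. They sit in different places of the mitoribosome, MRPS18A in the large subunit and the others in the small one. By systematic name, only MRPS18C was counted above as having a bacterial counterpart, and MRPS18A and MRPS18B were counted as added in mitochondria. MRPS18A had 37.4, 37.1 and 39.9 CPM in siControl and 39.1, 43.0 and 48.0 CPM in siNONO (log2 fold change 0.18, SE 0.0511, adjusted p = 0.0113 from edgeR). Its groups overlapped, and the Sets moved by 0.07, 0.21 and 0.27. MRPS18C had 31.0, 29.7 and 28.7 CPM in siControl and 32.9, 34.05 and 32.1 CPM in siNONO (log2 fold change 0.15, SE 0.0509, adjusted p = 0.0296 from edgeR), with no overlap. MRPS18B, per length the most abundant of the 3 (means of 74.8 TPM, against 66.9 for MRPS18A and 48.4 for MRPS18C), had 60.1, 65.0 and 64.5 CPM in siControl and 64.3, 68.4 and 67.9 CPM in siNONO and was not called (log2 fold change 0.08, SE 0.0378, adjusted p = 0.0989 from edgeR). The differences between the paralogs were not tested. The call of MRPS18A was lost without siControl of Set 3 (0.14, adjusted p = 0.0501 from edgeR) or siNONO of Set 2 (0.17, adjusted p = 0.0635 from edgeR). That of MRPS18C was lost without any 1 of the 6 libraries, where its log2 fold change ran from 0.13 to 0.19 and its adjusted p from 0.0505 to 0.175.

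MRPS30, a large-subunit protein despite its symbol, had 95.7, 91.9 and 89.4 CPM in siControl and 95.3, 100.2 and 86.9 CPM in siNONO, with a log2 fold change of 0.03 (adjusted p = 0.616 from edgeR). MRPS36 had 18.1, 16.5 and 16.3 CPM in siControl and 18.8, 18.4 and 18.5 CPM in siNONO, with 0.13 (adjusted p = 0.110 from edgeR). Neither was called, although the groups did not overlap for MRPS36.

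Levels within the family spanned from 13.4 to 214 TPM as the mean over the 6 libraries, with a median of 70.7 TPM. The most abundant large-subunit genes per length were MRPL12, MRPL3 and MRPL38. MRPL12, which forms the flexible stalk, had 206, 211 and 212 TPM in siControl and 207, 203 and 244 TPM in siNONO. It was called higher on counts (log2 fold change 0.14, adjusted p = 0.0256 from edgeR), and the call was lost without either library of Set 3 (0.06 in both cases). MRPL3 had 143, 148 and 143 TPM in siControl and 150, 146 and 132 TPM in siNONO and was not called. MRPL38 had 137, 129 and 140 TPM in siControl and 133, 129 and 153 TPM in siNONO and was higher on counts (0.15, adjusted p = 0.00767 from edgeR). Levels in TPM overlapped between the groups for all 3 genes.

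In the small subunit the most abundant genes were MRPS34, MRPS7 and MRPS23. MRPS34, a protein added in mitochondria that binds the small-subunit rRNA, had 168, 167 and 155 TPM in siControl and 152, 154 and 176 TPM in siNONO. It moved down in Sets 1 and 2 (-0.11 and -0.08 on counts) and up in Set 3 (0.19), and was not called (-0.00420). MRPS7, the counterpart of bacterial uS7 at the mRNA exit, had 135, 141 and 133 TPM in siControl and 132, 134 and 152 TPM in siNONO. It was called higher on counts (0.13, adjusted p = 0.0472 from edgeR), a call that was lost without either library of Set 3 (0.05 without siControl and 0.04 without siNONO). MRPS23 had 111, 119 and 108 TPM in siControl and 121, 114 and 127 TPM in siNONO and was higher on counts (0.16, adjusted p = 0.00411 from edgeR).

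The least abundant genes were MRPL50, MRPL57 and MRPL46 in the large and MRPS17, MRPS14 and MRPS31 in the small subunit. MRPL50 had 13.0, 13.0 and 13.9 TPM in siControl and 13.5, 14.3 and 12.8 TPM in siNONO. It was not called (0.12, adjusted p = 0.116 from edgeR), but was called higher without either library of Set 3 (0.185 and 0.182). MRPL57, called lower on counts, had 27.0, 26.2 and 28.0 TPM in siControl and 19.0, 17.5 and 22.1 TPM in siNONO. MRPL46 had 32.3, 30.2 and 32.7 TPM in siControl and 30.1, 30.5 and 34.6 TPM in siNONO and was not called (0.03). Of these 3 genes, only MRPL57 separated the groups.

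MRPS17 had 20.6, 20.4 and 16.5 TPM in siControl and 21.2, 22.3 and 25.3 TPM in siNONO and was higher on counts (0.19, adjusted p = 0.0247 from edgeR). Its call was lost without either library of Set 3 (0.13 in both cases), and it shares exons with NIPSNAP2 and a readthrough transcript on the same strand, so reads can be split between them. MRPS14 had 21.9, 19.4 and 23.2 TPM in siControl and 22.1, 24.0 and 21.98 TPM in siNONO and was not called (0.04). MRPS31 had 23.6, 24.0 and 22.5 TPM in siControl and 26.9, 26.1 and 25.6 TPM in siNONO, with no overlap. Across the 78 genes, within these same libraries, log2 fold change and mean TPM had Pearson's r of 0.0429 and Spearman's rho of 0.000746. With the gene length they had r of -0.216 and rho of -0.216, as a description across genes, which are not independent.

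The remaining genes that rose in the large subunit were MRPL28 (0.27), MRPL40 (0.25), MRPL4 (0.24), MRPL22 and MRPL32 (both 0.23), MRPL21 (0.22), MRPL1 and MRPL58 (both 0.21), MRPL9 (0.20), MRPL35 and MRPL47 (both 0.17) and MRPL10 (0.13), given as log2 fold changes. MRPL58 is a peptidyl-tRNA hydrolase that became part of the ribosome, and MRPL10 anchors the stalk of MRPL12. Some of these calls were lost when libraries were left out. With the Set as a block, a library left out also takes its partner out of the comparison. Either library of a Set therefore gives nearly the same fit, on fewer libraries, and does not show that a single library decided a call. MRPL1 and MRPL58 were not called without either library of Set 3 (log2 fold changes of 0.12 to 0.13), nor MRPL9 and MRPL35 without either library of Set 1 (0.13 to 0.14). MRPL47 was not called without siNONO of Set 1 (0.17) or either library of Set 2 (0.11 and 0.12). In the small subunit, MRPS12 (0.21), MRPS10 (0.19) and MRPS28 (0.14, log2 fold changes) also rose, and MRPS12 is the counterpart of the decoding-centre protein uS12. The call of MRPS28 was lost without any 1 of the 6 libraries, where the log2 fold change ran from 0.10 to 0.18. Genes not called with a negative log2 fold change were MRPL34 (-0.11), MRPL33 (-0.09), MRPL24 (-0.06) and MRPS11 (-0.03) and, at under 0.01 in size, MRPS34, MRPL14 and MRPL16. Of the genes not called, 31 had a positive value. The highest was that of MRPL54 at 0.19 (adjusted p = 0.0579 from edgeR).

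Exons of other genes overlapped those of 16 of the 78 genes on the same strand and of 30 on the opposite strand, by GENCODE on GRCh37. The library kit keeps strand, but the strand setting of the counting is not given in the sources used here, so reads of genes on opposite strands may not be told apart. Partners moved either way. EME2, opposite MRPS34, was higher at 0.46 (adjusted p = 1.40e-06 from edgeR), and GGA3, opposite MRPS7, was lower at -0.51 (adjusted p = 2.69e-07 from edgeR). PGAP6, on the strand of MRPL28, was higher at 0.86 (adjusted p = 3.58e-08 from edgeR). The part of these overlaps in the values of the members was not tested.

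Fewer genes were called higher by limma on TPM than by edgeR on counts. Both the test and the scale differ between them, and their parts in the number of calls were not tested. DESeq2, on counts, called 20 of the 78 genes higher. With limma on log2(TPM + 1) and the Set as a block, 11 of the 78 genes were higher and 7 lower, so that 61.1% of the called genes were higher, against 85% on counts. All genes tested shifted as well, from 49.7% higher among the called genes on counts to 31.2% on TPM, and their median moved from -0.00479 to -0.07. The median of the 78 genes moved from 0.11 to 0.03, and 15 genes changed from a positive value on counts to a negative one on TPM. Several genes with the highest or lowest values on counts were also called on TPM: MRPL51 differed by 0.37 (adjusted p = 0.00821 from limma), MRPL23 by 0.37 (adjusted p = 0.0296 from limma) and MRPS9 by 0.27 (adjusted p = 0.00521 from limma). MRPL43 differed by -0.63 (adjusted p = 8.63e-04 from limma), MRPL57 by -0.46 (adjusted p = 0.00541 from limma) and MRPS35 by -0.36 (adjusted p = 0.00248 from limma). Others with a high value on counts were not called on TPM, with differences of 0.29 for MRPL27 (adjusted p = 0.0582 from limma), 0.17 for MRPL2 (adjusted p = 0.203 from limma), 0.16 for MRPS31 (adjusted p = 0.0690 from limma) and 0.06 for MRPS2 (adjusted p = 0.259 from limma). RSEM's gene length, by which TPM is scaled, was shorter by over 0.1 on the log2 scale in siNONO for 5 genes (MRPS17, MRPS25, MRPS16, MRPS14 and MRPL19) and longer for MRPL30, which was called lower on TPM and was at 0.02 on counts.

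**Figure D3:**
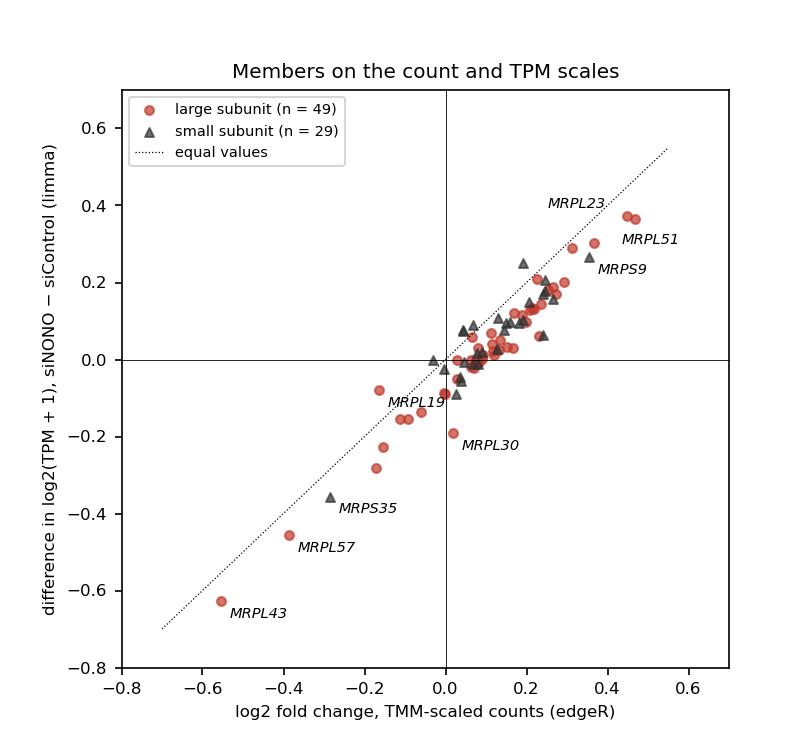
Log2 fold change on TMM-scaled counts (x axis, edgeR) against the difference in log2(TPM + 1) (y axis, limma) for the 78 genes; red circles are MRPL genes, dark triangles MRPS genes, and the dotted line marks equal values. Most genes lie below the line, and the medians are 0.11 on counts and 0.03 on TPM, while MRPL43 is the lowest on both scales and MRPL51 and MRPL23 are at 0.37 on TPM.

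Across 19 alternative settings, 10 of the 34 genes called higher were called higher in every one: MRPL23, MRPL28, MRPL32, MRPL4, MRPL44, MRPL51, MRPL55, MRPS15, MRPS24 and MRPS9. Of the 6 called lower, MRPL43, MRPL57 and MRPS35 were called lower in every one.

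Other parts of the mitochondrial translation system did not move in one direction. In all, 25 of 84 tested genes of 6 related lists were higher (29.8%) and 16 lower (19.0%), with a median log2 fold change of 0.04. The share called higher lay between the 23.2% of all genes tested and the 31.4% of genes no lower than the lowest member of the family. The share called lower lay below the matching 23.4% and 32.2%. Of 5 further proteins of the mitoribosome with other symbols, DAP3 was lower (-0.27, adjusted p = 3.14e-05 from edgeR) and PTCD3 higher (0.10, adjusted p = 0.0302 from edgeR), and PTCD3 lost its call without either library of Set 2. Of 30 assembly and rRNA processing factors, 9 were higher (30%) and 7 lower (23.3%), with 3 lower without either library of Set 1 or of Set 2. The share called higher lay near the 31.4% and the share called lower near the 23.4% of these backgrounds. SLIRP (0.49), which with LRPPRC stabilises mitochondrial mRNAs, and MALSU1 (0.44), which holds the large subunit free during assembly, were the highest of those called. MTERF3 (0.30) and TRUB2 (0.29) followed. GRSF1 (-0.48), an RNA granule protein, was the lowest, then NSUN4 (-0.27), MPV17L2 (-0.24) and RCC1L (-0.18).

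Of 14 translation factors, 5 were higher (35.7%) and 1 lower (7.14%). Their median log2 fold change was 0.10, with 0.05, 0.11 and 0.13 in Sets 1, 2 and 3. The share called lower and the median lay near those of the family, 7.69% and 0.11. The share called higher lay between the 31.4% of genes no lower than the lowest member of the family and the 43.6% of the family. The membrane insertase OXA1L (0.24), the elongation factor TUFM (0.21), the recycling factor MRRF (0.21) and GFM2 (0.13) were the highest among those called. MTRFR, a rescue factor for stalled ribosomes, was lower at -0.64 (adjusted p = 1.25e-06 from edgeR). Of 17 mitochondrial aminoacyl-tRNA synthetases, 5 were higher (29.4%) and 2 lower (11.8%). The share called higher lay between the backgrounds of 23.2% and 31.4%, and the share called lower below those of 23.4% and 32.2%. MARS2 (0.34), NARS2 and YARS2 (both 0.22) and SARS2 (0.21) were among the higher and RARS2 (-0.23) among the lower ones. Without either library of Set 3 the count of these synthetases was 3 higher and 5 lower.

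Of 9 genes of mitochondrial transcription and DNA maintenance, 3 were higher (33.3%), TFB2M (0.54), TWNK (0.34) and the RNA polymerase POLRMT (0.15), and 2 were lower (22.2%), TFAM (-0.17) and POLG (-0.10). TFAM and POLG both lost their calls without either library of Set 2, and also without the block, and 1 of them did so without either library of Set 1 or siControl of Set 3. Among 9 tested transcription factors and coactivators of nuclear mitochondrial genes, of 10 listed, NRF1 (-0.55, adjusted p = 7.62e-06 from edgeR), GABPA (-0.22, adjusted p = 0.00219 from edgeR) and GABPB1 (-0.19, adjusted p = 0.0240 from edgeR) were lower. GABPB2 (0.25) and YY1 (0.11) were higher on counts. Both lost their calls without either library of Set 2, and 1 of them did so without either library of Set 1. On log2(TPM + 1), YY1 was instead lower (-0.30, adjusted p = 0.00455 from limma), and GABPB2 was at -0.03 and not called. On that scale NRF1 (-0.41, adjusted p = 0.0103 from limma) and GABPA (-0.27, adjusted p = 0.0322 from limma) were also lower, and GABPB1 (-0.18, adjusted p = 0.0700 from limma) was not called. RSEM's gene length, by which TPM is scaled, differed on the log2 scale by 0.31 for YY1, 0.18 for GABPB2 and -0.19 for NRF1 (siNONO minus siControl). The part of length in these values was not tested. Among genes of the family, the median log2 fold change was 0.15 where the promoter holds CCGGAAG, against 0.08 where it does not. For ATGGCGG these medians were 0.13 and 0.08, for GCATGCG 0.15 and 0.08, for CCAAT 0.16 and 0.08 and for TATAAA, in 2 promoters only, 0.22 and 0.08, so the median was higher with than without each of the 5 motifs.

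The cytosolic ribosomal protein genes, which make the ribosome of the cytosol, moved in a like range. Of 77, 55 were higher (71.4%) and 4 lower (5.2%). These shares were 43.6% and 7.69% in the mitochondrial family and 23.2% and 23.4% over all genes tested. The cytosolic genes were far more abundant, with a median of 1686 TPM against 70.7 TPM. Their median log2 fold change was 0.15, and 0.10, 0.10 and 0.20 in Sets 1, 2 and 3. On log2(TPM + 1), 11 were higher and 6 lower by limma, against 1643 higher and 3614 lower of all 17000 genes tested.

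**Figure D4:**
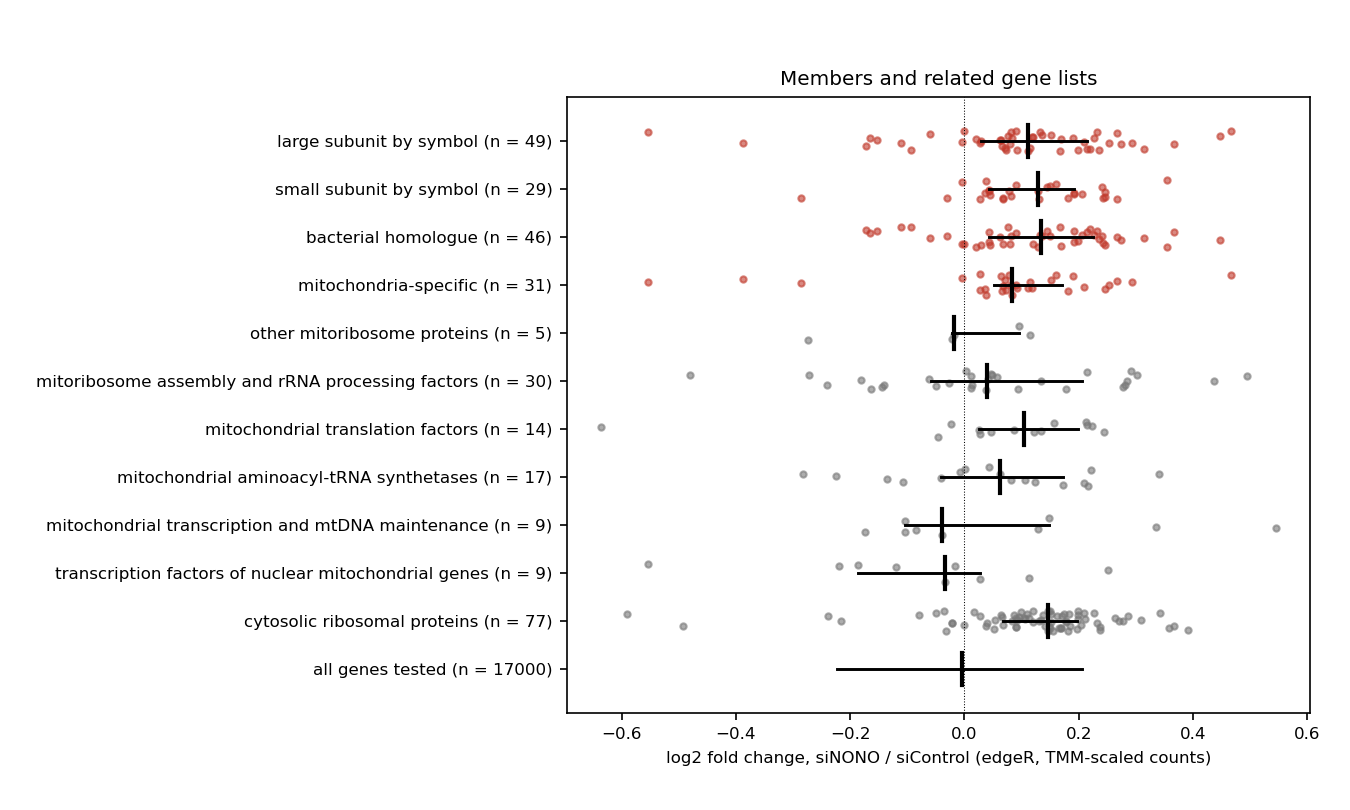
Log2 fold change (x axis, edgeR on TMM-scaled counts) of the genes of each group; dots are genes (red for mitochondrial ribosomal protein genes, grey for other lists, not drawn for all genes), thick ticks are medians and black lines span the quartiles. The medians of both subunits, 0.11 and 0.13, lie near that of the cytosolic ribosomal proteins, 0.15, and above that of all genes tested, -0.00479.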

How the data were processed

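RNA-seq of polyA RNA (TruSeq Stranded mRNA) from 3 siControl and 3 siNONO libraries of HCT116 was used. The authors trimmed reads, aligned them with STAR to GENCODE on GRCh37 and ran RSEM (version 1.3.1 per the labels). The deposited estimated counts (RSEM expected counts) are not normalized, and reads shared by genes are divided, so 33 of the 78 genes had a fractional count. The deposited TPM values are RSEM's, per effective gene length and set to the same total in each library.

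Symbols were found for 62162 of 62492 gene IDs, and positions were taken from a later GENCODE annotation of the same build. Counts were rounded and fitted with edgeR (version 4.0.16, in the form of edgeR 3): TMM factors (0.985 to 1.01), filterByExpr and quasi-likelihood F-tests with Set as a block, as the authors used a batch covariate. P-values were adjusted by Benjamini-Hochberg over 17000 genes, with calls at 0.05. The SE was the log2 fold change divided by the square root of F, and CPM used TMM-scaled library sizes. Values within a Set used log2 CPM with a prior count of 2. Replicates of a group all differed by more than sampling noise, by the chi-square given above. The biological coefficient of variation was 3.51%, which is the spread left after differences between Sets were fitted. On simulated counts for siNONO against siControl over 16693 genes, 75.3% of genes changed by 0.5 and 94.9% of those changed by 1 (log2) were recovered, with 5 false calls. The simulation changed 200 genes, with the same dispersion for all genes and no difference between Sets. Changes below 0.5, the size of most calls in the family, were not simulated, so these figures do not apply to them.

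Sets are numbered in the sample titles, and the numbers pair the libraries: deviations from the group means correlated at 0.428, 0.257 and 0.509 in Sets 1, 2 and 3 over 10814 genes, and from -0.444 to 0.159 across Sets. Named with values per library were, per subunit, up to 6 called genes with the highest and up to 6 with the lowest log2 fold change that kept direction in all Sets, the 3 highest and 3 lowest in mean TPM, the MRPS18 paralogs, MRPS30 and MRPS36. Other members are given by log2 fold change. Related lists give at most 4 genes per direction (the values of 1 gene are not reported here), and genes that overlap a member were added after their values were seen, as was MRPL17. The members and lists were chosen with earlier results of these data known.

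Settings tried besides were no replicate block, scaling by library size alone or by DESeq2's size factors, other filters (none, or at least 10 counts in every library), DESeq2 (version 1.42.0), the edgeR 4 form, limma (version 3.58.1) on log2(TPM + 1) or log2(TPM + 0.1), each library left out, and subunits by structure. Leaving out both libraries of a Set and robust dispersions were added after seeing the data. With the Set in the model, a library left out also takes its partner out of the comparison, so both ways of leaving out gave nearly the same fit.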

Additional observations from a re-analysis of the deposited data

How the results depend on the processing

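The Set was part of the model throughout. Without the replicate block 23 genes of the family were higher and 3 lower, and 7 genes of the related lists were lower, among 3096 genes higher and 3068 lower in all. With DESeq2, 20 members were higher, as were 13 genes of the related lists with 9 lower, among 2612 genes higher and 2615 lower in all. With limma on log2(TPM + 1) and log2(TPM + 0.1), 11 members were higher under both, as were 6 genes of the related lists, and 1643 and 1638 genes in all. The median log2 fold change was then 0.0310 and 0.0313 for the members and 0.0244 and 0.0247 for the large subunit, and the summed large subunit moved from 0.0228 in TPM to 0.0875 in CPM. Leaving out a library or a Set gave 29 to 34 members higher and 4 to 7 lower, 9 to 19 genes of the related lists lower (9 without either library of Set 2), and medians of 0.0874 to 0.136. In all, 3254 to 3858 genes were then higher and 3067 to 3795 lower. Signs turned in members that were not called. On log2(TPM + 1) and log2(TPM + 0.1), MRPL3 was at -0.0206 and -0.0208, MRPL46 at -0.000453 and -0.000519, MRPS18B at -0.0124 and -0.0125 and MRPS30 at -0.0888 and -0.0898. Leaving out libraries or Sets gave -0.0208 to 0.0610 for MRPS30, -0.00433 to 0.0771 for MRPS14 and -0.0963 to 0.0558 for MRPS34, which was called lower without siNONO of Set 3. MRPS34 was also at 0.0141 with no filter and 0.000360 without the block. The cause of these shifts was not tested. Each member had 271 or more counts per library, and 3 libraries per group limit the precision.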
